A study of Mus musculus with 79 samples.

Results

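*Ucp1*, *Cidea*, *Dio2*, *Ppargc1a*, *Prdm16*, *Elovl3*, *Cpt1b*, *Gk*, *Kcnk3* and *Otop1* are genes by which brown and beige fat are commonly recognized, and they were followed here by gene symbol through the bone marrow and inguinal fat of mice given leptin into the brain. They are 10 of the 39063 genes with a numeric identifier in the count and TPM (transcript abundance scaled for length and depth) tables, and all 10 were among the 14873 genes tested. *Elovl3* passed the expression filter through its level in iWAT (inguinal white adipose tissue), and in the 51 libraries of CV (caudal vertebrae, which are rich in constitutive marrow fat) it drew 42 counts in all. The tissue question was whether leptin raised these genes in iWAT and not in marrow.

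RNA came from 51 mice on a mixed SJLxC57BL6 background, whose age the series' design text gives as 4 to 5 months and the study's legends as a range that runs older. Each received PBS or leptin at 100 ng per h by intracerebroventricular (ICV) minipump for 9 days, and the mice were pair-fed at ordinary room temperature. WT mice were BMAd-Pnpla2+/+, and cKO mice were BMAd-Pnpla2-/- littermates that lack ATGL, the first lipase of triglyceride breakdown, in bone marrow adipocytes. iWAT was sequenced from 5 PBS and 5 leptin WT females. CV and LV (lumbar vertebrae, nearly free of fat) came from those same females and from 4 PBS and 4 leptin cKO females. Male CV came from 5 PBS and 8 leptin WT mice, from 5 PBS and 4 leptin cKO mice, and from 11 WT mice that also carried an insulin pellet, 5 with PBS and 6 with leptin. The insulin mice belong to other series of mouse numbers than the mice without insulin, so insulin and series cannot be told apart. There was no male iWAT or LV among the samples. Library totals were 17638317 to 19100698 counts in iWAT, 16100377 to 19364105 in CV and 28717515 to 29757254 in LV.

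Brown and beige adipocytes burn fuel as heat. Noradrenaline acts through beta-adrenergic receptors and cAMP to release fatty acids and to raise *Ucp1*, whose protein lets protons leak across the inner mitochondrial membrane. *Dio2* activates thyroid hormone within the cell, *Ppargc1a* and *Prdm16* are transcriptional coregulators of mitochondrial content and of brown identity, and *Cidea* is a lipid droplet protein. *Elovl3* elongates saturated and monounsaturated fatty acids, *Cpt1b* admits long-chain fatty acids to mitochondria, *Gk* phosphorylates glycerol, *Kcnk3* encodes a potassium leak channel, and *Otop1* encodes a proton channel. Inguinal fat is the classical site at which beige cells appear in mice.

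The positions of the genes in GRCm38.p6, the build of the authors' alignment, were taken from RefSeq by gene ID. *Ucp1* (gene ID 22227) spans chr8:83290348-83298456, *Dio2* (13371) chr12:90724552-90739038, *Elovl3* (12686) chr19:46131897-46135694 and *Kcnk3* (16527) chr5:30588170-30625270. *Otop1* (21906) lies at chr5:38277404-38304217, *Ppargc1a* (19017) at chr5:51454249-52115853 and *Prdm16* (70673) at chr4:154316122-154637360. *Gk* (14933) lies at chrX:85701937-85776819. *Cpt1b* (12895), at chr15:89416405-89425862, lies wholly within a read-through gene that joins it to *Chkb*, so its counts are less certain. *Cidea* has the gene ID 12683.

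RefSeq promoter windows, from 250 bases before to 50 bases after the start of the gene, were at hand for 6 of the 10 genes. The windows of *Dio2*, the gene that rose most with leptin in iWAT, and of *Ucp1*, which did not pass the test there, are shown. Capitals mark the cAMP response element TGACGTCA, its shorter form TGACG, which the full element contains on both strands, and the nuclear receptor element AGGTCA, each searched on both strands. The *Dio2* window is chr12:90738989-90739288 on the minus strand and the *Ucp1* window chr8:83290098-83290397 on the plus strand, both GRCm38.p6.
Dio2: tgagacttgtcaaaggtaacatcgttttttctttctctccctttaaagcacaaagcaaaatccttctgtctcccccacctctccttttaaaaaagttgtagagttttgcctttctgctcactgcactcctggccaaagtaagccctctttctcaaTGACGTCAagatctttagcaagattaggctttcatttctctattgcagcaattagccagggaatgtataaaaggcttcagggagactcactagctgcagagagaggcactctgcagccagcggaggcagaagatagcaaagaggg
Ucp1: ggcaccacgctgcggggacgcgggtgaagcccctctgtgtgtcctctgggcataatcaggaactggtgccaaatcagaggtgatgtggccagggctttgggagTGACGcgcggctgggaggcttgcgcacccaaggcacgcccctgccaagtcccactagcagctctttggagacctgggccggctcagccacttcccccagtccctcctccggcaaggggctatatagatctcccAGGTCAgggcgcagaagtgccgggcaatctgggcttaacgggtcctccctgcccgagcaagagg
TGACGTCA was found in 1.79% of the 32851 windows of all genes, TGACG in 20.8% and AGGTCA in 16.3%. Among the 6 genes, the full element was found in *Dio2* alone, with its first base at -95. The *Ucp1* window held TGACG at -147 and AGGTCA at -14, each on the gene's own strand. *Gk* held TGACG at -4, *Ppargc1a* held it on the other strand at -49, and the windows of *Prdm16* and *Otop1* held none of the 3 motifs.

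In iWAT of WT females, leptin raised *Dio2*, *Elovl3* and *Kcnk3* and lowered *Otop1*, while *Ucp1* and the other 5 genes did not pass the test. Genes were called at an adjusted p-value below 0.05 (edgeR's quasi-likelihood test, Benjamini-Hochberg adjustment over the 14873 genes) and a log2 fold change of 0.5 or more in either direction. The 3 genes called higher stood against 7.24% of all tested genes, and the 1 called lower against 7.87%. Over the 10 genes, the log2 fold changes had a median of 0.28, beside 0.07 over all genes tested. Without *Elovl3*, which passed the expression filter through its level in iWAT, 2 of 9 genes were called higher and 1 lower, with a median of 0.21.

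*Dio2* was at 0.44, 0.63, 0.39, 0.23 and 0.32 TPM in the 5 PBS mice and at 3.79, 1.17, 6.04, 12.09 and 2.16 TPM in the 5 leptin mice. Every leptin mouse lay above every PBS mouse, with a wide spread among the leptin mice. Its log2 fold change was 3.76 (standard error 0.62, edgeR adjusted p = 0.00202), or 13.6-fold. *Elovl3* was at 6.08, 5.84, 3.79, 3.18 and 4.39 TPM with PBS and at 7.54, 16.96, 11.55, 18.05 and 14.48 TPM with leptin. The groups again did not overlap, and the log2 fold change was 1.69 (standard error 0.27, edgeR adjusted p = 0.00178). *Kcnk3* was the most abundant of the 4 called genes, at 37.26, 52.01, 33.61, 34.96 and 26.27 TPM with PBS and at 52.45, 56.39, 97.68, 77.41 and 67.48 TPM with leptin. The highest PBS mouse lay just under the lowest leptin mouse. Its log2 fold change was 1.03 (standard error 0.23, edgeR adjusted p = 0.00824).

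*Otop1* went the other way, from 18.48, 12.31, 8.59, 11.47 and 10.94 TPM with PBS to 2.33, 3.24, 6.99, 8.08 and 5.92 TPM with leptin. The groups did not overlap, and the log2 fold change was -1.10 (standard error 0.34, edgeR adjusted p = 0.0379). This call is the weakest of the 4. Each of 6 of the 10 mice, when left out, took it past the threshold, to an edgeR adjusted p of at most 0.0849. *Dio2*, *Elovl3* and *Kcnk3* stayed called without any of the 10 mice. Complete separation of the groups was seen in 4 of the 10 genes and in 18.7% of all tested genes.

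*Ucp1* itself was at 24.47, 10.82, 9.62, 10.49 and 7.35 TPM with PBS and at 6.47, 36.63, 14.2, 60.66 and 15.9 TPM with leptin. The groups overlapped widely: a leptin mouse held the lowest value of all 10, and a PBS mouse exceeded 3 of the 5 leptin mice. The means were 12.6 ± 6.80 TPM and 26.8 ± 22.0 TPM (SD, n = 5 each), and the log2 fold change of 1.22 had a standard error of 0.56 (edgeR adjusted p = 0.128). *Cidea*, which accompanies *Ucp1* in brown fat, averaged 91.6 ± 23.5 TPM with PBS and 90.8 ± 56.9 TPM with leptin (SD, n = 5 each). Its leptin values ran from 13.65 to 157.33 TPM and enclosed all PBS values. It changed by a log2 value of 0.11 (standard error 0.49, edgeR adjusted p = 0.895).

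The coregulators and metabolic enzymes gave smaller values. *Ppargc1a* averaged 1.68 ± 0.263 TPM with PBS and 1.99 ± 0.251 TPM with leptin (SD, n = 5 each; log2 fold change 0.36, standard error 0.14, edgeR adjusted p = 0.0737). *Prdm16* averaged 1.78 ± 0.255 TPM and 1.28 ± 0.243 TPM in the same order (log2 fold change -0.40, standard error 0.15, edgeR adjusted p = 0.0748). *Cpt1b* was at 8.33 ± 3.14 TPM and 5.01 ± 2.28 TPM (log2 fold change -0.63, edgeR adjusted p = 0.214), and *Gk* at 3.48 ± 0.392 TPM and 3.68 ± 0.760 TPM (log2 fold change 0.21, edgeR adjusted p = 0.324). Neither *Ppargc1a* nor *Prdm16* passed, and their signs were opposite.

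**Figure D1:**
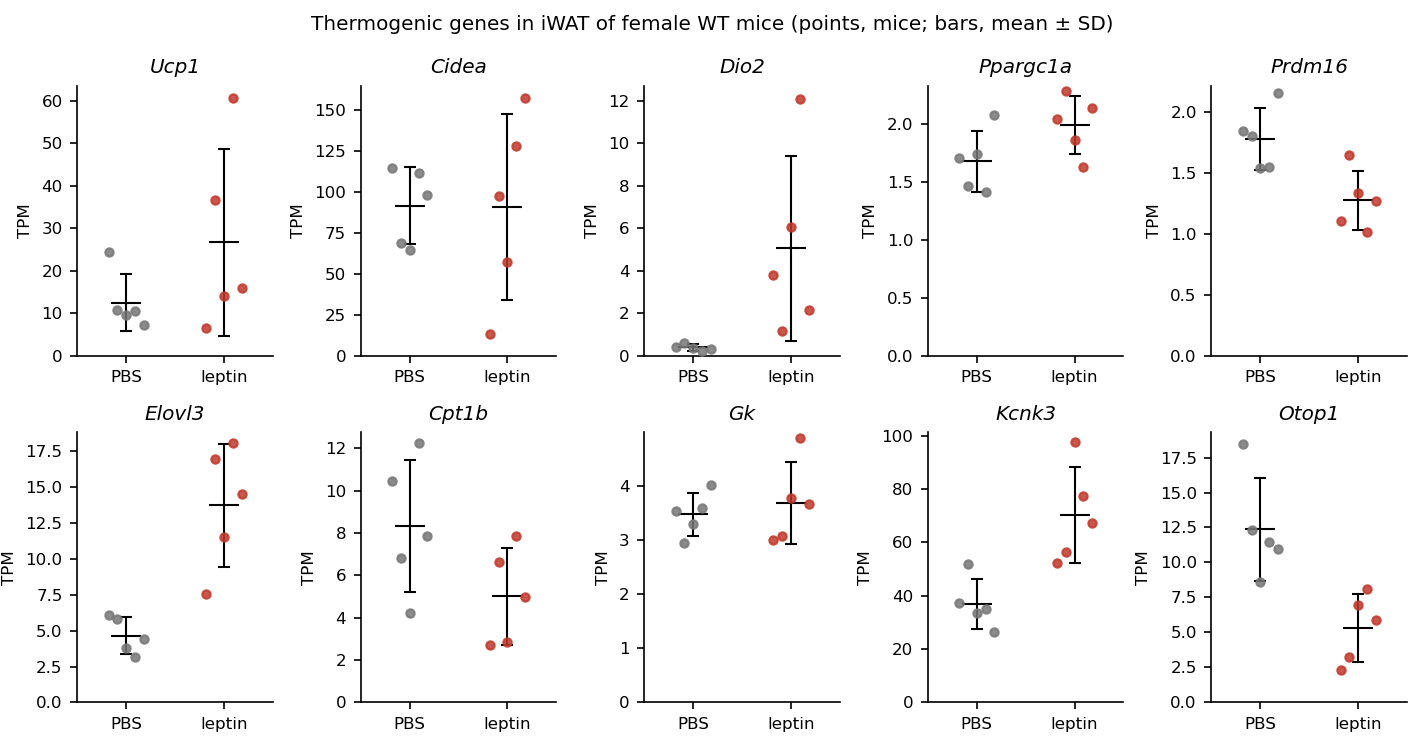
TPM of the 10 genes in iWAT of WT females (vertical axes, each from 0), with PBS in grey and leptin in red. Points are mice, 5 per group, and bars give the mean and SD. The groups separate for Dio2, Elovl3, Kcnk3 and Otop1 and overlap for Ucp1, whose leptin mice run from 6.47 to 60.66 TPM.

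The WT females came from 2 series of mouse numbers, the 100s (2 leptin, 3 PBS mice) and the 600s (3 leptin, 2 PBS mice), and the sign of each called gene held in both. For *Dio2*, the difference of mean log2(TPM + 0.1) between leptin and PBS was 1.94 for the 100s and 3.89 for the 600s. For *Elovl3* it was 1.13 and 1.92, for *Kcnk3* 0.43 and 1.40, and for *Otop1* -2.15 and -0.68. *Ucp1* gave 0.17 for the 100s and 1.44 for the 600s. These differences were not tested within a series, and with the series as a covariate the number of genes called stayed at 4.

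Across the 10 iWAT libraries, *Ucp1* varied together with *Elovl3* and, less closely, with *Cpt1b*. As the series of mouse numbers was not taken out, differences between the series remain in these relations. After the group mean was taken from log2(TPM + 0.1), Pearson's r between *Ucp1* and *Elovl3* was 0.82 (permutation p = 0.0037, adjusted 0.014) and Spearman's rho was 0.79 (permutation p = 0.0089, adjusted 0.037). These p-values are adjusted over the 33 relations of *Ucp1* computed in the 3 tissues. Without the 2 mice farthest from the *Ucp1* median, r was 0.63. For *Cpt1b*, r was 0.74 (permutation p = 0.013, adjusted 0.039) and rho 0.68 (permutation p = 0.035, adjusted 0.11), with r at 0.55 without those 2 mice. The difference between the relations was not tested. For *Cidea*, r was 0.70 (permutation p = 0.024, adjusted 0.066) with rho at 0.54 (permutation p = 0.11, adjusted 0.30), and r fell to 0.24 without those 2 mice, so that relation rests on them. A score of 10 skeletal muscle genes gave r = 0.54 with *Ucp1* (permutation p = 0.11, adjusted 0.24) and rho = 0.54 (permutation p = 0.12, adjusted 0.30), with r at 0.75 without those 2 mice. The muscle genes were uneven between these iWAT libraries, with sums of 35.87 to 3001 TPM with PBS and 21.84 to 3998 TPM with leptin. Their part in the relations of *Ucp1* and in the values of *Cpt1b* was not tested. When all genes averaging 1 TPM or more in iWAT were ranked by Pearson's r of log2(TPM + 1) with *Ucp1* over the 10 libraries, the leading 5 of 13405 were *H4c18* (0.84), *Mfsd2a* (0.83), *Sln* (0.81), *Gm17768* (0.79) and *Csrp3* (0.79). *Sln* and *Csrp3* are best known from striated muscle. *Elovl3* ranked 14 in this order at 0.72, and *Cidea* came lower, at 0.54.

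In CV of WT females, none of the 10 genes was called higher with leptin, and *Kcnk3* and *Cpt1b* were lower. The 2 genes called lower stood against 2.25% of all tested genes, and the median log2 fold change, taken without *Elovl3*, was -0.32 over the other 9 genes, beside -0.01 over all genes. In these whole bones, fewer cells of a type and less RNA per cell cannot be told apart.

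*Kcnk3* was at 3.81, 4.31, 3.55, 2.54 and 3.47 TPM with PBS and at 1.89, 1.78, 3.2, 2.32 and 1.56 TPM with leptin, with 1 leptin mouse inside the PBS range. Its log2 fold change was -0.76 (standard error 0.19, edgeR adjusted p = 0.0330). *Cpt1b* was at 43.2, 39.93, 35.47, 31.53 and 27.17 TPM with PBS and at 16.2, 28.9, 23.44, 17.69 and 20.83 TPM with leptin, with 1 leptin mouse above the lowest PBS mouse. Its log2 fold change was -0.74 (standard error 0.21, edgeR adjusted p = 0.0480). The genes of the skeletal muscle list, which includes *Acta1* and *Tnnt3*, summed to between 26133 and 52436 TPM with PBS and between 19961 and 43051 TPM with leptin in the same libraries, with 1 of the 10 called lower. With the muscle score as a covariate, the log2 fold change of *Cpt1b* was -0.42 (edgeR adjusted p = 0.0519) and that of *Kcnk3* -0.59 (edgeR adjusted p = 0.0953). Of the 10 fits that each left out a mouse, 8 lost the call of *Cpt1b* (edgeR adjusted p of up to 0.135) and 6 that of *Kcnk3* (up to 0.0894), and the count of called genes ranged from 0 to 2.

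Markers of other cells moved in the same CV libraries. Of 8 white adipocyte genes 3 were called lower, *Lep* (-5.96, edgeR adjusted p = 0.000407), *Plin1* (-1.37, edgeR adjusted p = 0.0142) and *Adipoq* (-0.89, edgeR adjusted p = 0.0309), and the list summed to 8985 to 12735 TPM with PBS and 5238 to 10182 TPM with leptin. Of 5 osteoblast and osteocyte genes 2 were called higher, *Col1a1* (1.66, edgeR adjusted p = 0.0225) and *Sp7* (0.98, edgeR adjusted p = 0.0164), with sums of 2295 to 6254 TPM and 5146 to 15824 TPM. Of 4 erythroid genes *Alas2* was called higher (2.00, edgeR adjusted p = 0.0248), with sums of 344 to 1190 TPM and 726 to 3548 TPM. The part of these cells in the values of the 10 genes was not tested.

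*Ucp1* in the same CV libraries was at 4.85, 6.86, 5.78, 4.93 and 3.59 TPM with PBS and at 6.5, 2.61, 2.53, 2.25 and 4.95 TPM with leptin. The groups overlapped, and the log2 fold change was -0.51 (standard error 0.31, edgeR adjusted p = 0.330). *Cidea* was at 10.27, 10.81, 6.57, 6.14 and 6.92 TPM with PBS and at 9.62, 21.02, 14.27, 18.8 and 8.78 TPM with leptin. Its log2 fold change of 0.80 (standard error 0.30) missed the threshold (edgeR adjusted p = 0.113), and passed it with DESeq2 (adjusted p = 0.0481) and with the muscle score as a covariate (log2 fold change 1.16, edgeR adjusted p = 0.0182). *Dio2* gave -0.13 (standard error 0.31, edgeR adjusted p = 0.823), with 2.67 ± 0.675 TPM with PBS and 2.54 ± 1.23 TPM with leptin (SD, n = 5 each). *Elovl3* drew 0 to 3 counts per library in either group, so no fold is given for it in CV.

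In CV of WT males the single call was a rise of *Cidea*, against 0.834% of all tested genes called higher. Its 5 PBS mice were at 13.93, 14.55, 19.04, 10.93 and 16.55 TPM, and its 8 leptin mice ran from 20.62 to 48.2 TPM with a median of 31.2 TPM. No leptin mouse overlapped the PBS mice, which was so for 1 of the 10 genes and 2.19% of all tested genes. The log2 fold change was 1.08 (standard error 0.22, edgeR adjusted p = 0.0174), and it was 1.02 within the 100s and 1.16 within the 600s as a difference of mean log2(TPM + 0.1). Leaving out PBS mouse 2 or 4 raised the edgeR adjusted p to 0.0564 and 0.0556, with log2 fold changes of 1.08 and 1.00. *Ucp1* did not rise beside it: PBS mice were at 14.18, 12.86, 8.15, 11.16 and 9.99 TPM, and leptin mice ran from 5.42 to 15.16 TPM with a median of 9.51 TPM (log2 fold change -0.33, standard error 0.21, edgeR adjusted p = 0.438). *Cpt1b* fell short of the test at -0.36 (standard error 0.10, edgeR adjusted p = 0.0551), and the summed muscle genes were at 54728 to 65117 TPM with PBS and 29304 to 50937 TPM with leptin, without overlap. In these libraries 3 of the 8 white adipocyte genes were called lower, *Plin1* (-1.23, edgeR adjusted p = 0.00517), *Adipoq* (-0.84, edgeR adjusted p = 0.0143) and *Lep*, which was at 5.04 to 23.87 TPM with PBS and 0 to 0.2 TPM with leptin. The list summed to 6177 to 10519 TPM with PBS and 5809 to 8884 TPM with leptin. Of 4 erythroid genes, *Alas2* (1.80, edgeR adjusted p = 0.0053) and *Hbb-bt* (edgeR adjusted p = 0.0174; 335 ± 159 TPM with PBS, n = 5, and 974 ± 355 TPM with leptin, n = 8, SD) were called higher, with sums of 198 to 583 TPM and 574 to 1664 TPM. The part of these cells in the rise of *Cidea* was not tested.

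**Figure D2:**
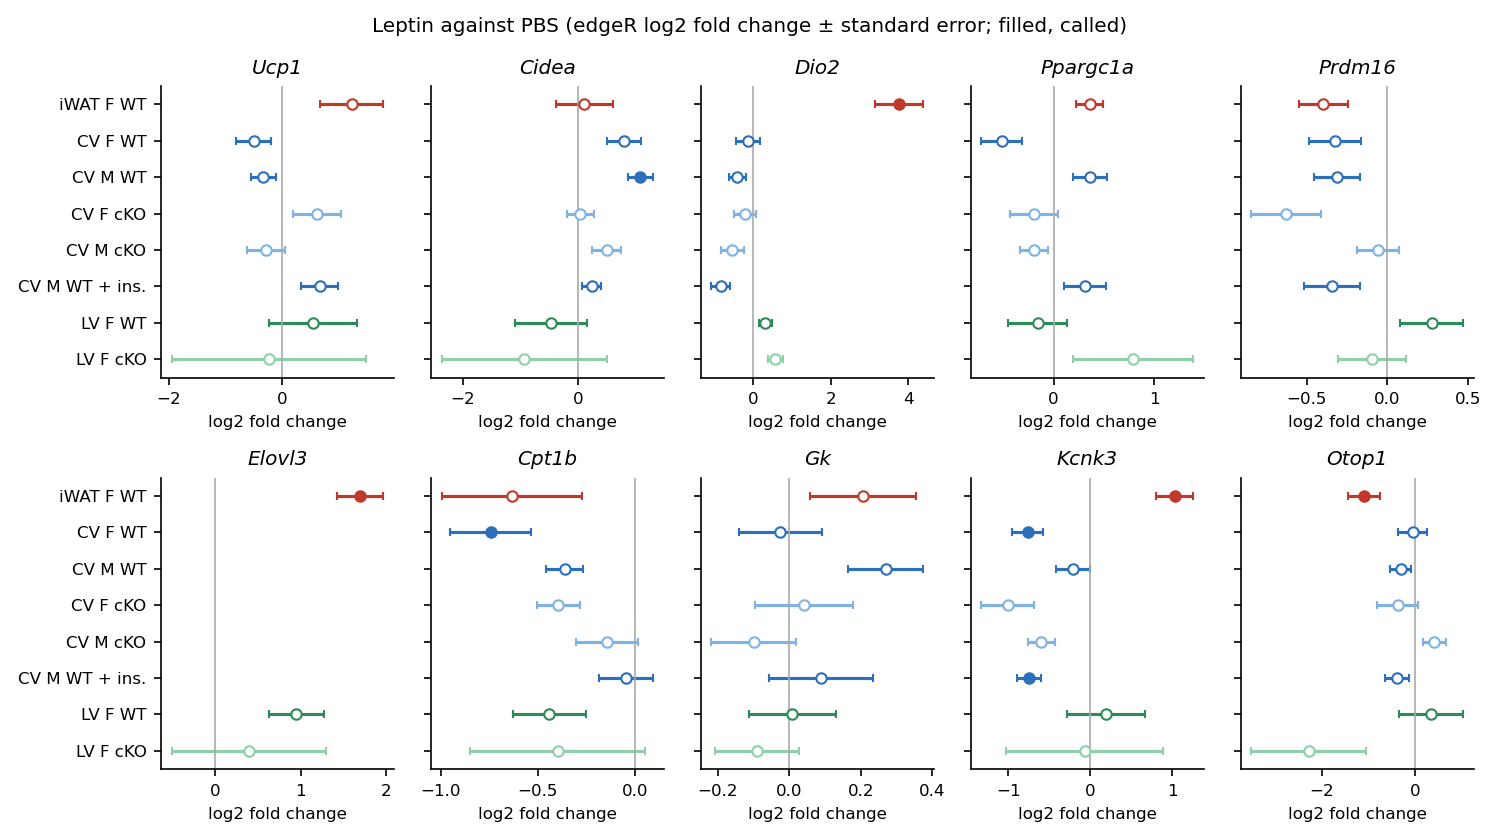
Log2 fold change of leptin against PBS (horizontal axes, scaled per gene) for the 10 genes in 8 comparisons, with the edgeR standard error as the bar and a filled point where the gene was called. F and M are female and male, and ins. is the insulin pellet. Elovl3 is not drawn in CV, where it had 0 to 3 counts per library. Dio2 stands at 3.76 in iWAT and between -0.83 and 0.57 elsewhere.

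The leptin effect differed between iWAT and CV of the WT females for *Dio2*, *Kcnk3* and *Ppargc1a*, all toward a higher value in iWAT, against 4.68% of all tested genes called in that direction. The interaction was 3.85 on the log2 scale for *Dio2* (standard error 0.71, edgeR adjusted p = 0.0015) and 1.76 for *Kcnk3* (standard error 0.31, edgeR adjusted p = 0.00123), which rose in iWAT and fell in CV. For *Ppargc1a* it was 0.84 (standard error 0.25, edgeR adjusted p = 0.0303), from 0.36 in iWAT and -0.52 in CV, neither of which passed alone. This last call was lost in 8 of the 10 fits that each left out a mouse, with edgeR adjusted p-values of up to 0.0861. For *Ucp1* the interaction was 1.68 (standard error 0.69, edgeR adjusted p = 0.110), and it was called with DESeq2 (1.70, adjusted p = 0.0491) and without leptin mouse 1 (2.19, edgeR adjusted p = 0.0251). A difference in the *Ucp1* response between iWAT and CV was therefore not shown by edgeR. For *Otop1* the interaction was -1.08 (edgeR adjusted p = 0.150) and, with the mouse as a block, -1.25 (edgeR adjusted p = 0.0447).

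Against LV, the effect in iWAT differed for *Dio2*, with 3.42 (standard error 0.64, edgeR adjusted p = 0.00105), where 5.41% of all tested genes were called in that direction. For *Kcnk3* the same interaction was 0.81 (standard error 0.52, edgeR adjusted p = 0.295). For *Ucp1* it was 0.65 with a standard error of 1.04 (edgeR adjusted p = 0.703), so the LV libraries allow no firm statement on *Ucp1*. For *Elovl3*, which rose in iWAT, the interaction with LV was 0.72 (standard error 0.44, edgeR adjusted p = 0.261). In LV of WT females *Elovl3* averaged 0.178 TPM with PBS and 0.338 TPM with leptin. The log2 fold change there was 0.95 (standard error 0.32, edgeR adjusted p = 0.210), so a difference between iWAT and LV was not shown for it. The comparisons with CV and with LV share the iWAT samples.

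With PBS, the tissues differed in which of these genes they carried. In iWAT, *Cidea* led at 91.6 ± 23.5 TPM, followed by *Kcnk3* at 36.8 ± 9.43 TPM, *Ucp1* at 12.6 ± 6.80 TPM and *Otop1* at 12.4 ± 3.69 TPM (SD, n = 5), and the last 2 did not differ beyond their spread. In CV of the same females, *Cpt1b* led at 35.5 ± 6.40 TPM, followed by *Cidea* at 8.14 ± 2.21 TPM and *Ucp1* at 5.20 ± 1.21 TPM (SD, n = 5). In LV the highest were *Gk* at 6.45 ± 1.45 TPM and *Cpt1b* at 2.49 ± 0.438 TPM, and *Ucp1* was at 1.65 ± 1.47 TPM (SD, n = 5).

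Between iWAT and CV of the PBS females, 5 of the 10 genes were higher in iWAT and 2 were lower, where 24.5% and 26% of all tested genes were called higher and lower. Without *Elovl3*, which passed the expression filter through its level in iWAT, the counts were 4 and 2 of 9. *Ucp1* was higher in iWAT by a log2 fold change of 1.41 (standard error 0.31, edgeR adjusted p = 0.00143), a smaller difference than that of *Cidea* (3.64, standard error 0.23), *Kcnk3* (3.54, standard error 0.21) or *Otop1* (4.14, standard error 0.29). *Elovl3* was called higher too, with 3.18 to 6.08 TPM in iWAT and at most 1 count per library in CV. *Dio2* was lower in iWAT than in CV, with a log2 fold change of -2.56 (standard error 0.25), and *Cpt1b* with -1.94 (standard error 0.25). With leptin, the mean of *Dio2* in iWAT rose to 5.05 ± 4.35 TPM, while CV stayed at 2.54 ± 1.23 TPM (SD, n = 5 each). Between CV and LV, 6 of the 10 genes were called higher in CV, against 34.9% of all tested genes, and 3 lower, against 31.7%. Without *Elovl3* they were 6 and 2 of 9. These calls depend on the scale, because the median of all genes between CV and LV was 0.02 on the log2 scale by edgeR with TMM and 1.08 by limma on log2(TPM + 0.1). *Cidea* was the weakest of the 6 (log2 fold change 1.05, edgeR adjusted p = 0.0469), and its call was lost in 4 of the 5 fits that each left out a mouse, with edgeR adjusted p-values of up to 0.180, and without the filter on low values (edgeR adjusted p = 0.0505). *Ucp1* was not called by edgeR (0.54, edgeR adjusted p = 0.389), but it was on log2(TPM + 0.1) by limma (2.16, adjusted p = 0.00766) and without PBS mouse 5 (1.29, edgeR adjusted p = 0.0494). *Dio2* changed sign with it, from -0.59 by edgeR to 0.48 on log2(TPM + 0.1). *Ppargc1a*, at 2.59 ± 0.385 TPM in CV and 0.104 ± 0.0230 TPM in LV (SD, n = 5 each), was higher in CV on either scale, as were *Prdm16*, *Cpt1b*, *Kcnk3* and *Otop1*.

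In LV no gene of the 10 was called with leptin in WT or cKO females, where edgeR called 0% of all tested genes in WT and 0% in cKO. At an unadjusted edgeR p below 0.05 there were 2 of the 10 in WT and 1 in cKO, beside 2183 and 1331 of all 14873 tested genes. DESeq2 called 0 of the 10 in each. The spread between mice was large for *Ucp1*. WT PBS mice were at 1.51, 0.07, 0.99, 1.63 and 4.03 TPM and WT leptin mice at 5.49, 0.11, 2.99, 2.63 and 1.25 TPM. cKO PBS mice were at 0.02, 0.04, 12.47 and 4.07 TPM and cKO leptin mice at 0.04, 0.58, 0.04 and 13.87 TPM. Each group thus held mice near 0 and mice well above, and the 2 highest cKO mice had more *Ucp1* than any CV library of a female. The standard error of the log2 fold change was 0.78 in WT and 1.71 in cKO.

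Several genes of the list rose and fell together with *Ucp1* across these LV mice. The series of mouse numbers was not taken out of these relations, so it cannot be told apart from differences between mice. After group means were taken from log2(TPM + 0.1) in the 18 LV libraries, Pearson's r with *Ucp1* was 0.94 for *Cidea* (rho 0.91), with permutation p = 1e-05 for either, the smallest the 100000 permutations can give, and 0.00016 after adjustment. It was 0.92 for *Kcnk3* (rho 0.91, permutation p = 1e-05 for either, adjusted 0.00016) and 0.83 for *Otop1* (permutation p = 2e-05, adjusted 0.00022; rho 0.81, permutation p = 9e-05, adjusted 0.00099). Without the 2 mice farthest from the *Ucp1* median, r was 0.89, 0.86 and 0.74 for these 3 genes. In LV *Otop1* lay between 0 and 0.41 TPM, and each group held libraries with 3 counts or fewer of it, so its relation rests partly on values near the floor. *Cpt1b*, *Elovl3* and *Ppargc1a* gave r of 0.74, 0.73 and 0.71 (permutation p = 0.00039, 0.00027 and 0.00077, adjusted 0.0026, 0.0022 and 0.0042), rho of 0.67, 0.57 and 0.67 (permutation p = 0.0028, 0.014 and 0.0033, adjusted 0.018, 0.047 and 0.018), and 0.54, 0.50 and 0.53 without those 2 mice. *Dio2* (r = -0.11, rho = -0.20), *Gk* (r = -0.14, rho = -0.31) and *Prdm16* (r = 0.18, rho = 0.04) gave no such relation (permutation p from 0.21 to 0.86, adjusted 0.36 to 0.95). A score of 8 white adipocyte genes moved with *Ucp1* as well, with r = 0.71 (permutation p = 0.001, adjusted 0.0048), rho = 0.62 (permutation p = 0.0067, adjusted 0.032) and r = 0.58 without those 2 mice. The summed level of these white adipocyte genes was 229 to 548 TPM over all LV libraries, and their part in the relation was not tested. Over all CV libraries, which include males, median TPM was higher than in LV for *Ucp1* (6.92 and 1.38). The same held for *Cidea* (14.55 and 1.13) and *Kcnk3* (2.16 and 0.195). Between CV and LV of PBS females, edgeR did not call *Ucp1*. In the 51 CV libraries the same calculation, again with the series left in, gave r = -0.09 for *Cidea* (permutation p = 0.53, adjusted 0.67; rho -0.08, permutation p = 0.59, adjusted 0.72). For *Kcnk3* it gave -0.13 (permutation p = 0.37, adjusted 0.61; rho -0.18, permutation p = 0.20, adjusted 0.36). For *Prdm16* in CV it gave r = -0.43 (permutation p = 0.0013, adjusted 0.0054; rho -0.45, permutation p = 0.00092, adjusted 0.0076), with r at -0.39 without the 2 mice farthest from the *Ucp1* median. The white adipocyte score was negative there as well, with r = -0.38 (permutation p = 0.006, adjusted 0.020), rho = -0.35 (permutation p = 0.013, adjusted 0.047) and r = -0.37 without those 2 mice.

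**Figure D3:**
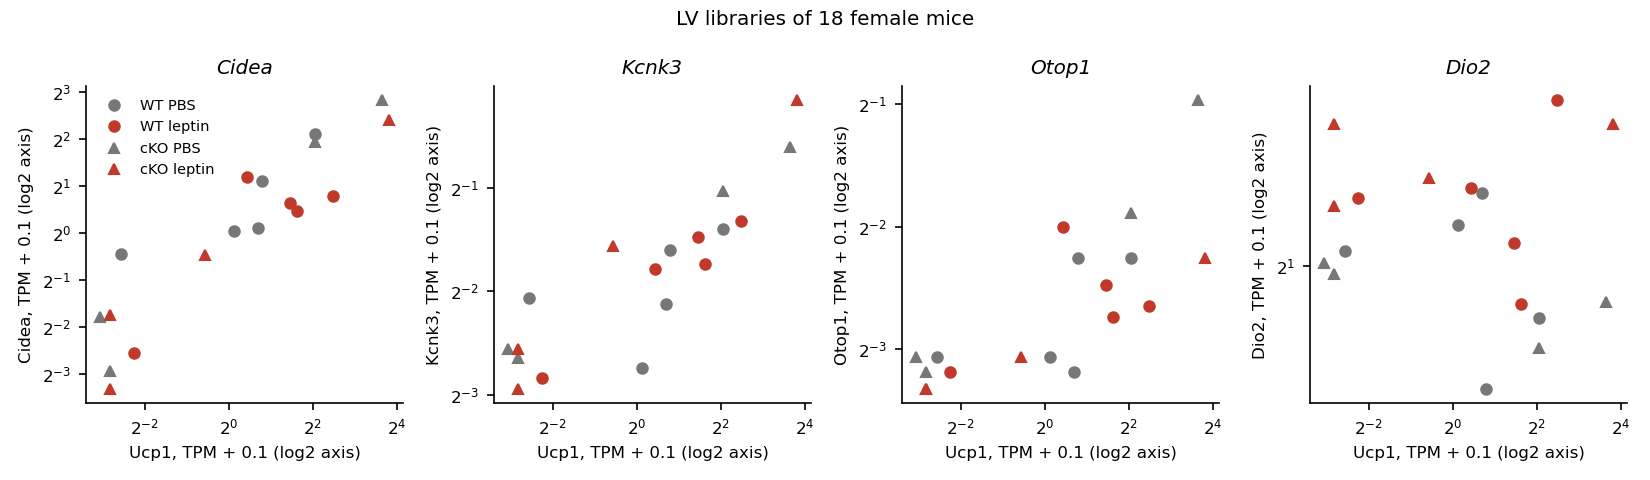
TPM + 0.1 of Cidea, Kcnk3, Otop1 and Dio2 (vertical, log2 axes) against Ucp1 (horizontal, log2 axis) in the 18 LV libraries of females. Circles are WT and triangles cKO, grey is PBS and red is leptin, and each point is a mouse. Cidea, Kcnk3 and Otop1 climb with Ucp1 over its range of 0.02 to 13.87 TPM, and Dio2 does not.

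In CV of cKO mice, in which marrow adipocytes lack ATGL, no gene of the 10 was called with leptin in either sex, where 0.0269% of all tested genes were called for females and 0.188% for males. By unadjusted p below 0.05, edgeR gave 3 of the 10 for females and 1 for males, beside 1723 and 1436 of all 14873 tested genes. DESeq2 called 0 of the 10 in either sex. *Cidea* was at 6.66 ± 1.28 TPM with PBS and 6.33 ± 0.891 TPM with leptin in cKO females (SD, n = 4 each; log2 fold change 0.04, standard error 0.23, edgeR adjusted p = 0.954). In cKO males it was at 10.24, 9.71, 19.36, 13.89 and 16.05 TPM with PBS and at 19.35, 22.61, 19.53 and 15.98 TPM with leptin (log2 fold change 0.50, standard error 0.25, edgeR adjusted p = 0.573). Whether the *Cidea* response differed between WT and cKO was not tested. *Ucp1* gave 0.60 (standard error 0.43, edgeR adjusted p = 0.591) in cKO females and -0.29 (standard error 0.34, edgeR adjusted p = 0.849) in cKO males.

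*Kcnk3* had a negative log2 fold change with leptin in each of the 5 CV comparisons, which share no mice. The same held for *Dio2*, *Prdm16* and *Cpt1b*, so the sign is not particular to *Kcnk3*. *Kcnk3* was called in WT females (-0.76) and in WT males with insulin. It gave -0.21 in WT males, -1.01 in cKO females and -0.60 in cKO males (standard errors 0.20, 0.32 and 0.16, edgeR adjusted p = 0.628, 0.331 and 0.183). In cKO females it was at 2.49, 2.45, 4.61 and 3.92 TPM with PBS and at 1.17, 1.83, 0.95 and 2.23 TPM with leptin. In cKO males it was at 2.93, 1.85, 2.55, 2.33 and 2.55 TPM with PBS and at 1.74, 1.55, 1.48 and 1.53 TPM with leptin. The treatment groups did not overlap in either sex of the cKO, a separation seen for 3 of the 10 genes and 5.02% of all tested genes in females and for 1 of the 10 and 2.72% in males. In iWAT the same gene rose.

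The insulin groups of WT males were compared after the values of the other groups had been seen. With insulin, leptin left *Kcnk3* lower, against 0.558% of all tested genes called lower. It was at 2.66, 2.24, 2.24, 3.31 and 2.45 TPM with PBS and ran from 1.13 to 1.81 TPM with leptin, with a median of 1.495 TPM and no overlap, which was so for 2.95% of all tested genes (log2 fold change -0.75, standard error 0.14, edgeR adjusted p = 0.0349). Leaving out any of 6 of the 11 mice ended this call, with an edgeR adjusted p of up to 0.0858. *Cidea* was at 11.25, 15.4, 14.69, 19.95 and 12.9 TPM with PBS and insulin, and its 6 leptin mice ran from 11.72 to 22.52 TPM with a median of 17.3 TPM. The log2 fold change was 0.24 (standard error 0.17, edgeR adjusted p = 0.454), beside 1.08 without insulin. The difference between the 2 effects was -0.84 (standard error 0.30, unadjusted p = 0.00885, edgeR adjusted p = 0.529) and did not pass. Of all tested genes 0% were called for that difference, with 1385 at an unadjusted p below 0.05, and DESeq2 called 13 of all genes and 0 of the 10. *Ucp1* gave 0.66 with insulin (standard error 0.32, edgeR adjusted p = 0.298).

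The level of *Ucp1* and *Cidea* in CV with PBS differed between the sexes, in a comparison also added after the values were seen. WT males had *Ucp1* at 8.15 to 14.18 TPM and WT females at 3.59 to 6.86 TPM, a log2 fold change of 1.35 (standard error 0.20, edgeR adjusted p = 0.000897). For *Cidea* the males were at 10.93 to 19.04 TPM and the females at 6.14 to 10.81 TPM (log2 fold change 1.11, standard error 0.20, edgeR adjusted p = 0.00236). These 2 genes were called, against 3.5% of all tested genes called higher in males, and they were the 2 of the 10 whose sexes did not overlap, which held for 27.2% of all tested genes. The white adipocyte genes summed to 6177 to 10519 TPM in these males and 8985 to 12735 TPM in these females, and the muscle genes to 54728 to 65117 TPM and 26133 to 52436 TPM. Their part in the sex difference was not tested. Both calls held without any of the 10 mice.

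**Figure D4:**
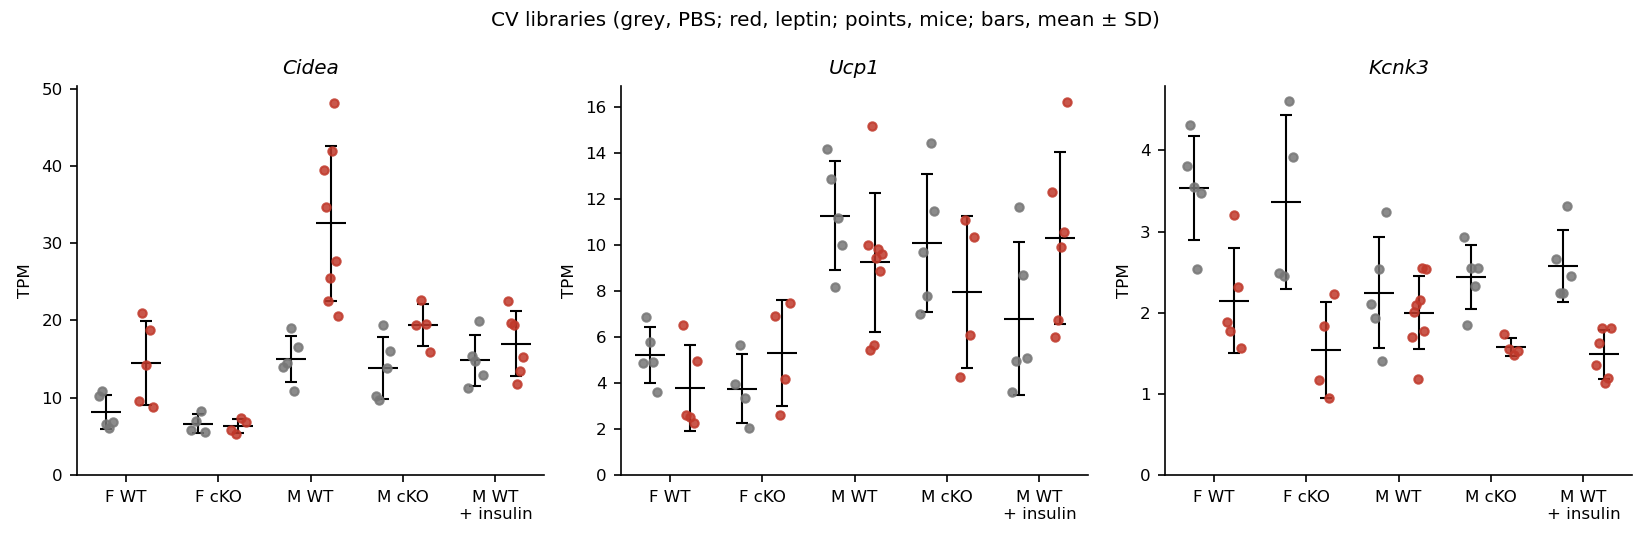
TPM of Cidea, Ucp1 and Kcnk3 in CV (vertical axes, each from 0) in 5 settings of sex, genotype and insulin, with PBS in grey and leptin in red. Points are mice and bars the mean and SD. Cidea in WT males rises from at most 19.04 TPM to at least 20.62 TPM, and Ucp1 is higher in males than in females with PBS.

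The wider thermogenic programme, a list of 21 further genes of brown fat oxidation, adrenergic input and regulation, mostly did not follow *Dio2* in iWAT. Of its 19 tested genes, 2 were called higher, against 7.24% of all tested genes, and 6 lower, against 7.87%, and the median log2 fold change was -0.32, beside 0.07 over all genes. *Irf4*, a transcription factor that partners *Ppargc1a* in brown fat, rose from 10.5 ± 3.02 TPM to 126 ± 62.4 TPM (SD, n = 5 each; log2 fold change 3.70, standard error 0.36, edgeR adjusted p = 0.000103). In the same libraries 2 T cell genes summed to 26.8 to 54.0 TPM with PBS and 6.11 to 121 TPM with leptin. For 3 B cell genes the sums were 46.1 to 232 TPM and 2.42 to 414 TPM. None of these genes was called, and the part of lymphocytes in the rise of *Irf4* was not tested. *Slc27a2*, a fatty acid transporter and acyl-CoA synthetase, rose from 1.39 ± 1.06 TPM to 14.98 ± 5.55 TPM (SD, n = 5 each; log2 fold change 3.54, standard error 0.51, edgeR adjusted p = 0.000962). Among the genes that fell were *Klb*, the co-receptor of FGF21 (-1.27, standard error 0.19, edgeR adjusted p = 0.00117), and *Cox7a1*, a respiratory chain subunit (-1.25, standard error 0.41, edgeR adjusted p = 0.0458). Skeletal muscle also expresses *Cox7a1*, and the part of muscle in its fall in iWAT was not tested. *Adrb3*, the beta-adrenergic receptor of adipocytes, was at 264 ± 61.9 TPM with PBS and 77.3 ± 85.2 TPM with leptin (SD, n = 5 each), and its fold change was not called (-1.69, edgeR adjusted p = 0.0593).

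The same list gave 0 genes higher and 1 lower in CV of WT females, where 2.78% of all tested genes were called higher and 2.25% lower. It gave 1 higher and 3 lower in CV of WT males, against 0.834% and 0.914%. *Irf4* rose in WT males (1.41, standard error 0.28, edgeR adjusted p = 0.0151), and *Cox8b*, *Fabp3* and *Cox7a1*, which skeletal muscle also expresses, fell there, with log2 fold changes of -0.92, -0.97 and -0.85. The interaction between iWAT and CV was called for *Irf4* (2.73, standard error 0.60, edgeR adjusted p = 0.00515) and for *Slc27a2* (4.00, standard error 0.97, edgeR adjusted p = 0.00913), where 4.68% of all tested genes were called in that direction. It was called the other way for *Acot11*, an acyl-CoA thioesterase (-0.72, standard error 0.24, edgeR adjusted p = 0.0482), against 6.64%. Among 8 tested genes of heat-producing cycles that do not need *Ucp1*, *Gamt*, which makes creatine, fell in iWAT (-1.52, standard error 0.19, edgeR adjusted p = 0.000469), *Pm20d1* fell (-1.48, standard error 0.31, edgeR adjusted p = 0.00699) and *Gatm* rose (0.52, standard error 0.14, edgeR adjusted p = 0.0189), so that 1 was higher and 2 lower, against 7.24% and 7.87% of all tested genes. The calls of this list in CV of WT females were *Ckmt2*, the mitochondrial creatine kinase of striated muscle, which fell (-1.53, edgeR adjusted p = 0.0253), and *Alpl*, a phosphatase that osteoblasts also express, which rose (0.83, edgeR adjusted p = 0.0324). The single call of the list in male WT CV was a fall of *Pm20d1* (-1.17, edgeR adjusted p = 0.0217). Of 10 markers of beige or brown identity, *Shox2* alone was called in iWAT, lower, at -0.64 (standard error 0.17, edgeR adjusted p = 0.0170). The same list gave 2 higher in CV of WT females, against 2.78% of all tested genes, and 0 lower. *Shox2* rose there from 2.61 ± 0.505 TPM to 6.23 ± 2.08 TPM (SD, n = 5 each; log2 fold change 1.16, edgeR adjusted p = 0.0296), and *Tnfrsf9* from 1.41 ± 0.596 TPM to 3.09 ± 0.789 TPM (SD, n = 5 each; log2 fold change 1.13, edgeR adjusted p = 0.0462). In these libraries 2 of 5 osteoblast and osteocyte genes were called higher too. The part of cells other than adipocytes in the rise of *Shox2* and *Tnfrsf9* was not tested. The effect on *Shox2* differed between iWAT and CV, with an interaction of -1.84 (standard error 0.35, edgeR adjusted p = 0.00177). White adipocyte genes in iWAT gave 1 higher and 4 lower of 8, against 7.24% and 7.87% of all tested genes, with *Lep* at -7.54 (edgeR adjusted p = 0.000555), and their summed level was 66211 to 84918 TPM with PBS and 54869 to 94175 TPM with leptin.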

How the data were processed

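RNA of 79 libraries from 51 mice was analysed. The authors deposited estimated counts per gene without normalization, and TPM values scaled within each library, from paired-end reads of poly(A) RNA. SOAPnuke removed poor reads, and HISAT and Bowtie2 placed the rest on GRCm38.p6 (the submitters' processing notes also name the build GRCm39). The counting tool was not given in the sources used here. Of 74693 features, 39063 carried a numeric gene ID, and the 14873 that averaged 0.4 TPM or more across the 79 libraries were tested. Counts (51 values in 6 genes were not whole and were rounded) were scaled by TMM and each comparison was fitted alone with edgeR 4.0.16 (quasi-likelihood F-test, R 4.3.3). Standard errors were derived from its F statistic. Relations used Python 3.11.15, numpy 2.4.6 and scipy 1.17.1 with 100000 permutations, two-sided, of deviations from group means of log2(TPM + 0.1).

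Alternatives were DESeq2 1.42.0, limma 3.58.1 on log2(TPM + 1) and log2(TPM + 0.1), RLE size factors, other filters, no fold threshold, covariates, a block and leaving out each library or mouse. The tests were checked on simulated data. The 10 genes and the gene lists were chosen with earlier results of these data known, and the sex and insulin comparisons were added after values had been seen. All 10 genes are named whatever their values. From other lists, genes called in the comparison described are named, at most the 4 with the largest change, and 1 or 2 of the most abundant.

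Samples of the same number from iWAT, CV and LV come from the same mouse, and deviations of CV and iWAT of the same mice from their group means correlated at -0.02 to 0.29. Equal numbers of leptin and PBS samples mark different mice. No 2 libraries of a group were alike within sampling noise, with a chi-square per degree of freedom of at least 11.4 for any pair. Counts cover sampling error at the depths given, and p-values measure the spread between mice.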

Additional observations from a re-analysis of the deposited data

Results flagged for a closer look

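In groups of 4 to 8 mice, the gap of the highest or lowest library to the next was set against the whole range of the group for each of the 10 genes. Of 150 pairs of gene and group, 12 held a library far from the others, where chance gives about 1 in 20, and 10 pairs with 3 counts or fewer in every library were left out. Of the 12, 4 came from the same library, LV of cKO leptin mouse 4, with *Ucp1* at 13.87 TPM (others 0.04 to 0.58), *Cidea* at 5.24 TPM (others 0 to 0.62), *Elovl3* at 1.2 TPM (others 0.08 to 0.11) and *Cpt1b* at 4.58 TPM (others 1.38 to 1.7). In LV of cKO PBS mouse 3, *Elovl3* was at 0.54 TPM (others 0.16 to 0.21). In LV of WT leptin mouse 4, *Ppargc1a* was at 0.2 TPM (others 0.06 to 0.09) and *Cpt1b* at 3 TPM (others 1.48 to 1.87), and in leptin mouse 3 *Prdm16* was at 0.12 TPM (others 0.21 to 0.24). In iWAT, *Ucp1* of PBS mouse 1 was at 24.47 TPM (others 7.35 to 10.82). In CV, *Ucp1* of WT male leptin mouse 3 was at 15.16 TPM (others 5.42 to 10.01), *Ppargc1a* of WT female leptin mouse 3 at 3.19 TPM (others 1.22 to 1.75) and *Prdm16* of cKO female PBS mouse 3 at 2.39 TPM (others 1.4 to 1.54). Without PBS mouse 1, the iWAT comparison of *Ucp1* gave a log2 fold change of 1.58 (edgeR adjusted p = 0.0781).

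The leptin effect differed between tissues by the edgeR interaction test for *Dio2* (iWAT minus CV 3.85, iWAT minus LV 3.42), *Kcnk3* (iWAT minus CV 1.76) and *Ppargc1a* (iWAT minus CV 0.84), all in WT females.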

How the results depend on the processing

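In iWAT, 4 of the 10 genes were called under every setting other than the replicate block, which gave 3 without *Otop1*, and leaving out single mice gave 3 to 4. In CV of WT females the count of 2 moved to 1 without the filter on low values and with limma at either pseudocount. With the muscle score it was 1 as well, but both falls were lost and the call was the rise of *Cidea*. The count was 3 with DESeq2, which added the rise of *Cidea*, and 3 with the replicate block, which added *Ppargc1a*. It ranged from 0 to 2 without single mice. In CV of WT males the 1 call, *Cidea*, was lost with the replicate block (0 genes, log2 fold change 1.03, edgeR adjusted p = 0.0631) and in 2 of the 13 fits without single mice (0 to 1). Equal replicate numbers do not pair leptin and PBS mice: their deviations correlated at -0.17 to 0.40 in iWAT and -0.22 to 0.10 in male CV. In CV of cKO females, 1 fit of the 8 CV groups called 2 genes (*Kcnk3* and *Prdm16*) in place of 0. In the comparison of iWAT with LV effects, DESeq2 gave 2, limma 4 with a pseudocount of 1 and 2 with 0.1, and leaving out mice gave 1 to 2, in place of 1. With insulin, DESeq2 gave 2 and the replicate block 0 in place of 1, and leaving out mice gave 0 to 1. Leaving out mice gave 2 to 3 for iWAT minus CV, 7 to 8 for iWAT against CV, 7 to 10 for CV against LV and 2 to 3 for sex. The sign of *Dio2* between CV and LV reversed on TPM (0.34 with a pseudocount of 1, 0.48 with 0.1). Blocks by mouse changed no other call between tissues than *Otop1*. The causes were not tested. Over all genes, DESeq2 called 142 in place of 0 in LV of WT females, 72 in place of 0 in LV of cKO females, 219 in place of 4 and 212 in place of 28 in CV of cKO females and males, 465 in place of 260 in CV of WT males and 316 in place of 106 with insulin. Low counts limit *Elovl3* in CV, where no library held more than 3, and *Otop1* in LV, where each group had libraries at 3 counts or fewer. *Ucp1* and *Cidea* also had such libraries in LV, and *Kcnk3* had 1. *Ppargc1a* ran from 9 to 74 counts there.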
